A study of Homo sapiens with 12 samples.

Results

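Messenger RNA of 10 genes of the NF-kB system was followed in CHRF288-11, a human megakaryoblastic leukemia line, after exposure to the secreted ligands Wnt3a and Wnt5a. The genes were the subunits NFKB1, NFKB2, RELA, RELB and REL, the inhibitors NFKBIA, NFKBIE and BCL3, and the target genes BIRC3 and CD83, and a probe entered when its detection score was above 0.99 on at least 3 of the 12 arrays. Of 16 probes for these genes on the array, 12 passed, covering 9 of the 10 genes, out of 14051 passing probes among 48803. All 12 were detected on every array, so none entered through a single group. The 4 groups were cells given both ligands, cells given Wnt5a at 1200 ng/mL, cells given Wnt3a at 150 ng/mL, and untreated cells, each as 3 arrays that the series calls biological replicates. All cultures went without serum for 16 h, ligands acted for 8 h, and the RNA came from whole cultures of 1 cell line, so more RNA per cell and a larger share of cells with that RNA cannot be told apart. Each ligand had a single dose and no vehicle group is labelled, so ligand and protein amount cannot be told apart.

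NF-kB transcription factors are dimers of the Rel family that rest in the cytoplasm, bound by inhibitors of the IkB family. Receptor signals acting through the IKK kinases destroy these inhibitors, and the freed dimers enter the nucleus and switch on target genes, among them the genes for their own inhibitors, which gives the system its negative feedback. In megakaryocytes NF-kB has been tied to inflammatory cytokine signals and to survival. Wnt3a is the standard activator of beta-catenin signalling, and Wnt5a is the standard ligand of the beta-catenin-independent branch.

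NFKBIA, BIRC3, CD83 and RELB rose with Wnt5a, none of them rose with Wnt3a, and each was higher with Wnt5a than with Wnt3a. BCL3 was lower with either ligand and with the combination. Under 22 alternative settings, the calls between the ligands held throughout for NFKBIA and BIRC3 and ended in 6 for CD83 and 13 for RELB. The Wnt5a calls against untreated cells held throughout for BIRC3 and CD83 and ended in 1 for NFKBIA and 6 for RELB. Those of BCL3 ended in 5 with Wnt5a, 6 with Wnt3a and 1 with both. NFKB1, NFKB2 and RELA passed the test in no comparison, and REL was not detected.

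Arrays were hybridized on 2 BeadChips of 6 arrays. Chip 1 held Wnt5a arrays 1 and 3, Wnt3a arrays 2 and 3, and untreated arrays 2 and 3, and chip 2 held the whole combination with Wnt5a array 2, Wnt3a array 1 and untreated array 1. Mean signals before normalization were 312.1 to 378.3 and 12511 to 14088 probes were detected per array. Of 11 megakaryocyte markers, 9 were detected on all arrays, including GATA1, ITGA2B and GP9, while the platelet chemokine genes PF4 and PPBP were detected on 0. Values below are log2 normalized signals, and changes are log2 differences adjusted for chip, with their standard error (SE) from limma and p-values adjusted by Benjamini-Hochberg over all 14051 probes, called when under 0.05. Array signal does not rank genes against each other, so levels are compared between groups for 1 probe at a time.

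Promoter sequence is shown for the members that passed a test, because several of them rose in the same groups. The RefSeq table for GRCh38.p14 has entries for 8 members, in 13 windows from 250 bases before to just past a transcription start. The kB consensus was searched on both strands, and overlapping matches were kept. A match stood in 8 of the 13 windows, where 11.3% of all 35116 windows of the same length had one. By gene, 7 of the 8 had a match in any window and RELA had none, with no share over all genes computed. The members were listed as NF-kB genes and known targets, so this count tests nothing about the ligands. REL, NFKB1, NFKB2 and BCL3 also had matches, which were thus not particular to genes that rose. Requiring a tighter spelling gave 5.91% of all windows and a looser one 14.0%, with the same 8 windows of the members. RELB and NFKBIE have no entry. The sequences below run 5′ to 3′ on the gene's strand, with matched letters in capitals; for BCL3, whose match lies just past the start, 30 bases are given. These are letters in a window, and binding was not measured.
NFKBIA, chr14:35404750-35404999 (minus strand): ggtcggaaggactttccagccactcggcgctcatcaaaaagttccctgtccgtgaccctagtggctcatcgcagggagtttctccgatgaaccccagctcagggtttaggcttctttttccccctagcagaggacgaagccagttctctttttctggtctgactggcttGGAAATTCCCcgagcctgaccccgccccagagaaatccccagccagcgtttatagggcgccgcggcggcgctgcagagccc
BIRC3, chr11:102317234-102317483 (plus strand): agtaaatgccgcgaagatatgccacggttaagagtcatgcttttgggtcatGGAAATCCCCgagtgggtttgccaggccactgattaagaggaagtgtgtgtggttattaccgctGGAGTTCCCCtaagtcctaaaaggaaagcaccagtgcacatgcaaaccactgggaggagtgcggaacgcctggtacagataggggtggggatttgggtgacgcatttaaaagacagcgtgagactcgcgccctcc
CD83, chr6:14117522-14117771 (plus strand): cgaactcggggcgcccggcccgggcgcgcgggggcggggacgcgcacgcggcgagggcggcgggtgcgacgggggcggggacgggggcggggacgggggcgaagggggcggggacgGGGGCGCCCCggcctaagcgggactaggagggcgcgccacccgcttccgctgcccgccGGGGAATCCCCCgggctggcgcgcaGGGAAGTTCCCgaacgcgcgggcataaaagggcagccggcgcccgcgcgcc
BCL3, chr19:44748700-44748729 (plus strand): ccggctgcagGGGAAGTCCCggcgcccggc

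Among the subunits, RELB, the Rel protein that pairs with the product of NFKB2 in the non-canonical branch, was the one that moved. Its values were 7.05, 7.06 and 7.26 with both ligands, 7.21, 7.18 and 7.27 with Wnt5a, 7.04, 6.87 and 6.93 with Wnt3a, and 6.93, 6.90 and 6.86 in untreated cells. The 3 Wnt5a arrays lay above every Wnt3a and untreated array, and the combination overlapped the Wnt5a arrays. RELB rose by 0.32 ± 0.07 with Wnt5a against untreated cells (SE, n = 3 per group; adjusted p = 0.0218), with differences of 0.36 on chip 1 and 0.25 on chip 2. Against Wnt3a the Wnt5a value was higher by 0.28 ± 0.07 (adjusted p = 0.0451; 0.34 on chip 1 and 0.15 on chip 2). With Wnt3a alone it differed from untreated cells by 0.05 (95% CI -0.11 to 0.21), and with both ligands by 0.19 ± 0.08 (adjusted p = 0.193).

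NFKB1, which encodes the precursor of the p50 subunit, hardly varied: 10.87 to 11.03 with both ligands, 10.88 to 11.00 with Wnt5a, 10.90 on all 3 Wnt3a arrays and 10.85 to 10.94 in untreated cells. Its change with Wnt5a was 0.02 (95% CI -0.12 to 0.16) and with Wnt3a -0.00 (95% CI -0.15 to 0.14), both against untreated cells. NFKB2, the precursor of the p52 subunit, was measured by a pair of probes, and neither passed in any comparison. Its brighter probe read 6.15 to 6.41 with both ligands, 6.38 to 6.61 with Wnt5a, 6.31 to 6.47 with Wnt3a and 6.22 to 6.51 in untreated cells, with every group overlapping its neighbours.

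RELA encodes p65, the main transactivating subunit of the canonical branch. It read 6.41, 6.34 and 6.25 with both ligands, 6.29, 6.38 and 6.21 with Wnt5a, 6.63, 6.48 and 6.20 with Wnt3a, and 6.62, 6.51 and 6.35 in untreated cells. The groups overlapped as measured, and the combination and Wnt5a separated from untreated cells after chip adjustment. Its differences from untreated cells were -0.30 ± 0.10 with both ligands (adjusted p = 0.087), -0.20 ± 0.08 with Wnt5a (adjusted p = 0.22) and -0.06 ± 0.08 with Wnt3a (adjusted p = 0.857), so none passed. Neither of the REL probes exceeded the detection threshold on any array (highest scores 0.884 and 0.939), so c-Rel, the remaining transactivating subunit, has no value here.

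Among the inhibitors, NFKBIA separated the ligands most clearly. It encodes IkB-alpha, the classical inhibitor that NF-kB re-induces after its destruction. NFKBIA read 10.61, 10.48 and 10.61 with both ligands, 10.70, 10.61 and 10.71 with Wnt5a, 10.14, 10.06 and 10.07 with Wnt3a, and 10.30, 10.18 and 10.40 in untreated cells. The order of the groups was therefore Wnt5a, both, untreated and Wnt3a, where Wnt5a and the combination overlapped and the other neighbours did not. It rose by 0.38 ± 0.07 with Wnt5a against untreated cells, 1.30-fold (adjusted p = 0.00904; 0.41 on chip 1 and 0.31 on chip 2). Its Wnt3a value differed from untreated cells by -0.20 ± 0.07, which did not pass (adjusted p = 0.262; -0.22 on chip 1 and -0.16 on chip 2). NFKBIA was higher in Wnt5a cells than in Wnt3a cells by 0.58 ± 0.07 (adjusted p = 0.000459; 0.64 on chip 1 and 0.47 on chip 2).

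NFKBIE encodes IkB-epsilon, a slower feedback inhibitor. It read 7.69, 7.44 and 7.88 with both ligands, 7.86, 7.77 and 7.59 with Wnt5a, 7.46, 7.24 and 7.41 with Wnt3a, and 7.37, 7.35 and 7.56 in untreated cells. All Wnt5a arrays lay above all Wnt3a and untreated arrays, but the spread within groups was wide, with an SD of 0.22 among the combination arrays. The Wnt5a value differed from untreated cells by 0.31 ± 0.11 (adjusted p = 0.165) and from Wnt3a by 0.37 ± 0.11 (adjusted p = 0.0896), so neither difference passed.

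BCL3 is an atypical IkB protein that works in the nucleus, where it binds p50 and p52 dimers and modulates transcription. It read 8.24, 8.21 and 8.01 with both ligands, 8.31, 8.18 and 8.24 with Wnt5a, 8.19, 8.28 and 8.13 with Wnt3a, and 8.65, 8.61 and 8.53 in untreated cells. Every treated array lay below every untreated array, and the treated groups overlapped one another. Against the same untreated arrays, which the comparisons share, BCL3 fell by 0.44 ± 0.09 with both ligands (adjusted p = 0.0128; -0.50 on chip 2), by 0.35 ± 0.08 with Wnt5a (adjusted p = 0.0203; -0.30 on chip 1 and -0.47 on chip 2) and by 0.39 ± 0.08 with Wnt3a (adjusted p = 0.0262; -0.37 on chip 1 and -0.45 on chip 2). The Wnt5a and Wnt3a values differed by 0.04 (95% CI -0.13 to 0.21).

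BIRC3 encodes cIAP2, a ubiquitin ligase of TNF receptor complexes and a long-known NF-kB target. Its brighter probe read 8.27, 8.50 and 8.31 with both ligands, 8.39, 8.36 and 8.60 with Wnt5a, 7.74, 8.00 and 8.08 with Wnt3a, and 7.92, 7.93 and 8.09 in untreated cells. The arrays fell into a higher set with Wnt5a present and a lower set without it, with no overlap between the sets. BIRC3 rose by 0.47 ± 0.09 with Wnt5a against untreated cells, 1.38-fold (adjusted p = 0.00753; 0.48 on chip 1 and 0.44 on chip 2), and was 1.43-fold higher with Wnt5a than with Wnt3a, a difference of 0.51 ± 0.09 (adjusted p = 0.00378; 0.46 on chip 1 and 0.63 on chip 2). Its Wnt3a value differed from untreated cells by -0.04 (95% CI -0.23 to 0.14). A second probe read 6.33, 6.23 and 6.24 with both ligands, 6.11, 6.31 and 6.36 with Wnt5a, 5.89, 5.62 and 5.66 with Wnt3a, and 5.82, 5.66 and 5.47 in untreated cells. That probe passed in the same comparisons, with 0.61 ± 0.08 for Wnt5a against untreated cells (adjusted p = 0.00095) and 0.54 ± 0.08 for Wnt5a against Wnt3a (adjusted p = 0.00191). The BIRC3 symbol rests on the deposited file alone.

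CD83, a surface molecule of activated antigen-presenting cells and another known NF-kB target, read 7.76, 7.72 and 7.66 with both ligands, 7.87, 7.85 and 8.00 with Wnt5a, 7.56, 7.71 and 7.57 with Wnt3a, and 7.37, 7.59 and 7.55 in untreated cells. As measured, the Wnt5a arrays were the highest, and the combination lay between them and the untreated arrays and overlapped the Wnt3a arrays. After chip adjustment the combination, all on chip 2, overlapped the Wnt5a arrays (7.72 to 7.82 against 7.81 to 7.94) and not the Wnt3a arrays. CD83 rose by 0.40 ± 0.07 with Wnt5a against untreated cells, 1.32-fold (adjusted p = 0.00404; 0.37 on chip 1 and 0.48 on chip 2), and exceeded its Wnt3a value by 0.29 ± 0.07 (adjusted p = 0.0217; 0.30 on chip 1 and 0.29 on chip 2). Its Wnt3a value differed from untreated cells by 0.11 (95% CI -0.04 to 0.25). A dimmer second probe passed in no comparison and read 6.63 to 6.91 with both ligands, 6.71 to 6.81 with Wnt5a, 6.39 to 6.58 with Wnt3a and 6.38 to 6.65 in untreated cells. Its Wnt5a value differed from untreated cells by 0.20 ± 0.09 (adjusted p = 0.274) and from Wnt3a by 0.28 ± 0.09 (adjusted p = 0.103). In these comparisons the probes share direction while 1 of them passed. The Wnt3a value of the second probe differed from untreated cells by -0.08 (95% CI -0.27 to 0.12), opposite in sign to the brighter probe.

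**Figure D1:**
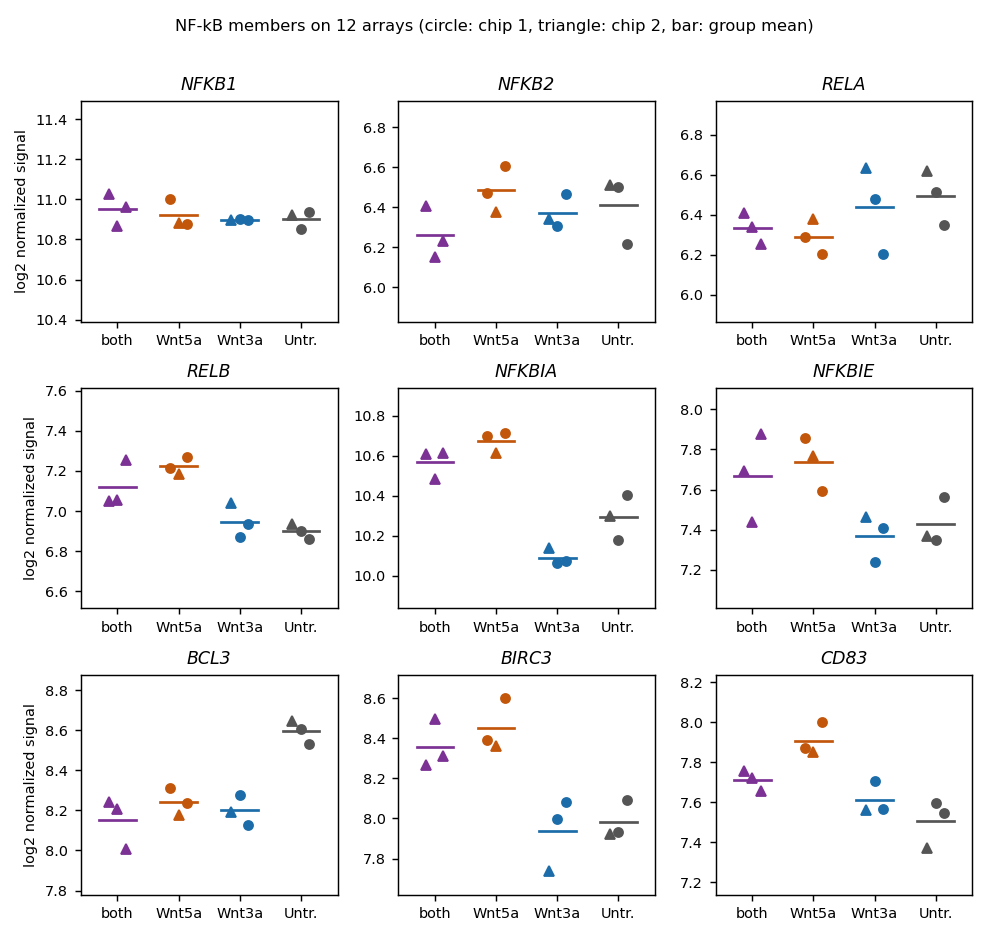
Log2 normalized signal of the brighter tested probe of 9 NF-kB members on 12 arrays, by group from left to right (both ligands, Wnt5a, Wnt3a, untreated), with circles for chip 1, triangles for chip 2 and bars for group means, not adjusted for chip; every panel spans the same height in log2 units. NFKBIA and BIRC3 are high on all arrays with Wnt5a, BCL3 is high on the 3 untreated arrays, and NFKB1 is level.

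**Figure D2:**
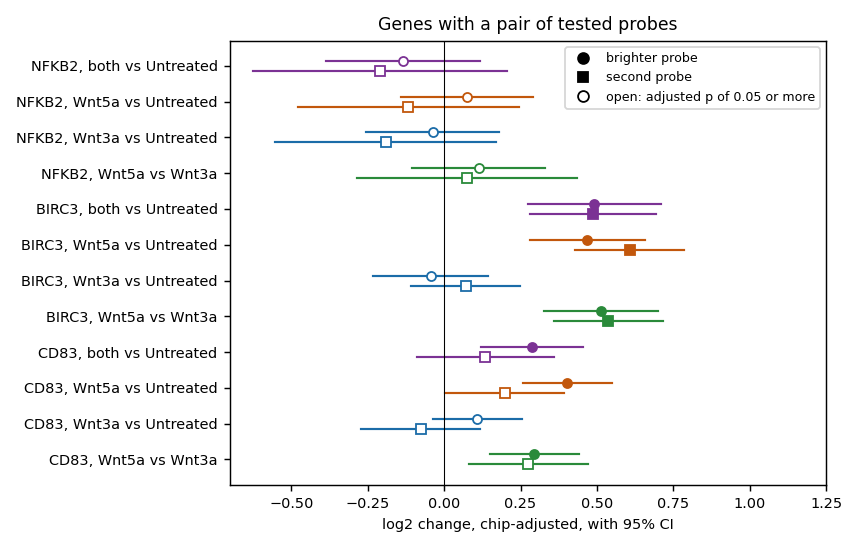
Chip-adjusted log2 change with 95% CI for the 3 genes that have a pair of tested probes, in 4 comparisons; circles are the brighter probe, squares the second probe, and open symbols have an adjusted p of 0.05 or more. The BIRC3 probes match in their calls, and for CD83 the brighter probe passed where the second did not.

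The first comparison asked what Wnt5a alone did. NFKBIA, BIRC3, CD83 and RELB were higher and BCL3 was lower than in untreated cells, so that 4 of 9 measured members rose, 1 fell and 4 did not pass, where 5.25% of all tested probes were called (2.92% higher and 2.33% lower). By role, both target genes rose, with a median of 0.44, 1 of 3 inhibitors rose and 1 fell, with a median of 0.31, and 1 of 4 subunits rose, with a median of 0.05, against -0.00 over all tested probes. Chip-adjusted values did not overlap between the groups for 7 of 9 members, where 24.5% of all probes were so separated. BIRC3 and CD83 were called whichever array was left out, whereas the NFKBIA call ended without Wnt5a array 3 (adjusted p = 0.0524), that of RELB without Wnt5a array 1 or 3 or any 1 untreated array (0.0513 to 0.114), and that of BCL3 without Wnt5a array 2 or 3 or untreated array 1 or 2 (0.0688 to 0.121). In the authors' log2 table the changes were smaller, 0.30 for BIRC3, 0.22 for CD83 and 0.14 for RELB, and these still passed.

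The next comparison asked what Wnt3a alone did. BCL3 fell, and the other 8 measured members did not pass, where 1.52% of all tested probes were called (0.947% higher and 0.569% lower). The median change was 0.03 for the target genes, -0.20 for the inhibitors and -0.02 for the subunits, against -0.00 over all tested probes. Chip-adjusted values separated from untreated cells for 2 members, BCL3 and NFKBIA, where 20.5% of all probes were separated. Before normalization, the lymphoid marker sum ran from 1359.5 to 1448.4 with Wnt3a and from 1041 to 1321.3 in untreated cells. Its part in the result was not tested. The BCL3 call ended without any 1 Wnt3a array or untreated array 1 or 2 (adjusted p = 0.0585 to 0.181).

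Set directly against each other, the ligands differed in NFKBIA, BIRC3, CD83 and RELB, all higher with Wnt5a. Thus 4 of 9 members were called higher and 0 lower, where 5.9% of all tested probes were called (3.32% higher and 2.58% lower), and chip-adjusted values separated for 5 members where 26.2% of all probes did. Medians were 0.40 for target genes, 0.37 for inhibitors and 0.07 for subunits, against -0.01 over all tested probes. Before normalization, the summed signal of 5 lymphoid markers ran from 981.6 to 1194.6 with Wnt5a and from 1359.5 to 1448.4 with Wnt3a. CD2 and CD79A were detected on all arrays and CD3D, CD3E and MS4A1 on 0. The part of this shift in the result was not tested. NFKBIA and BIRC3 were called whichever array was left out; the CD83 call ended without Wnt5a array 2 or 3 or Wnt3a array 1 or 3 (adjusted p = 0.0634 to 0.111), and that of RELB without any 1 Wnt5a, Wnt3a or untreated array (0.0567 to 0.188). RELB also missed the threshold with no chip term (0.0556), under median scaling (0.0581) and in the authors' table (0.055), and CD83 with no chip term (0.0501), while NFKBIE passed without combination array 2 (0.0462), without background correction and with an offset of 50 (0.0285 and 0.0368).

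**Figure D3:**
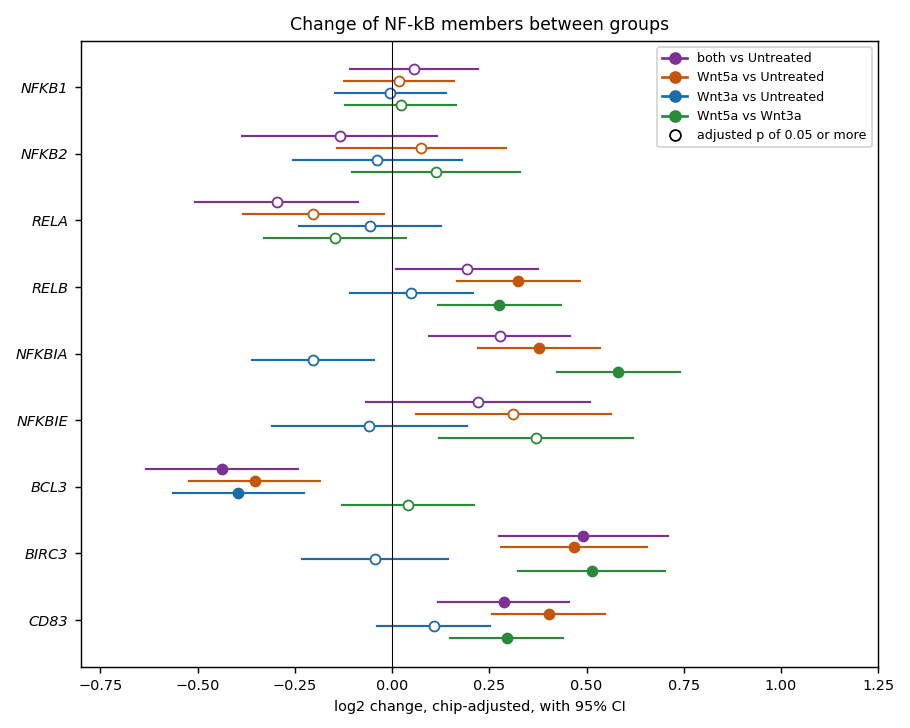
Chip-adjusted log2 change of 9 NF-kB members (brighter probe) with 95% CI in 4 comparisons, filled where the adjusted p was under 0.05 and open otherwise. NFKBIA, BIRC3, CD83 and RELB lie right of 0 for Wnt5a against untreated cells and for Wnt5a against Wnt3a, and BCL3 lies left of 0 for every treatment against untreated cells.

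The combination asked whether the ligands together moved the members as Wnt5a did. Against untreated cells BIRC3 was higher by 0.49 ± 0.10 (adjusted p = 0.012; 0.44 on chip 2) and CD83 by 0.29 ± 0.08 (adjusted p = 0.0429; 0.34 on chip 2), and BCL3 was lower. Of 9 members 2 rose, 1 fell and 6 did not pass, where 7.77% of all tested probes were called (4.45% higher and 3.32% lower), and chip-adjusted values separated for 6 members where 34.1% of all probes did. NFKBIA differed by 0.28 ± 0.08, which did not pass (adjusted p = 0.067), although it passed in 7 of 22 alternative settings, 1 of them without untreated array 3 (0.0456). Medians were 0.39 for target genes, 0.22 for inhibitors and -0.04 for subunits, against -0.01 over all tested probes. Untreated array 1 was the 1 untreated array on the chip of the combination, and without it no member was called (adjusted p = 0.0717 for BIRC3, 0.179 for BCL3 and 0.351 for CD83). Calls over all tested probes fell from 1092 to 238 without that array, so the loss was not particular to the members. The CD83 call also ended when any 1 of 9 other arrays was left out, namely each combination array, Wnt5a arrays 2 and 3, Wnt3a arrays 1 and 2, and untreated arrays 2 and 3 (0.0523 to 0.1), and with the chip term dropped (0.161).

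Against Wnt3a alone, the combination had more NFKBIA, by 0.48 ± 0.08 (adjusted p = 0.00843; 0.43 on chip 2), and more BIRC3, by 0.54 ± 0.10 (adjusted p = 0.0117; 0.62 on chip 2). So 2 of 9 members rose and 0 fell, where 4.61% of all tested probes were called (2.78% higher and 1.84% lower), and 4 members separated where 34.8% of all probes did. The summed monocyte marker signal was 765.6 to 897.2 with both ligands and 898.1 to 1007.6 with Wnt3a, with LYZ and CSF1R on all arrays, CD14 on 5 and FCN1, S100A8 and S100A9 on 0, and the lymphoid sum was 1047.7 to 1163.6 with both and 1359.5 to 1448.4 with Wnt3a. The megakaryocyte sum was lower too, 16166.5 to 18356.7 with both and 18756.1 to 19617.4 with Wnt3a. All these sums are of signals before normalization, and the combination lay wholly on chip 2. Mean array signal ran the same way, 312.1 to 347.5 with both and 345.7 to 376.1 with Wnt3a. Marker shifts and array brightness cannot be told apart here, and their part in the result was not tested. Both calls ended without Wnt3a array 1, the 1 Wnt3a array on that chip (0.0687 for NFKBIA and 0.21 for BIRC3). Calls over all tested probes then fell from 648 to 86.

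Against Wnt5a alone the combination differed in 0 members by limma, with adjusted p of at least 0.641 and 0 members at an unadjusted p under 0.05, where 0.121% of all tested probes were called (0.121% higher and 0% lower). Changes lay between -0.21 for NFKB2 and 0.04 for NFKB1. For NFKBIA the difference was -0.10 (95% CI -0.28 to 0.08), for BIRC3 0.02 (95% CI -0.19 to 0.24) and for CD83 -0.12 (95% CI -0.28 to 0.05). The interaction asked whether Wnt3a did something else in the presence of Wnt5a than by itself (both minus Wnt5a, less Wnt3a minus untreated). It was called by limma for 0 of 9 members and for 0% of all probes. At an unadjusted p under 0.05 it held 2 members and 1099 of all tested probes. These members were BCL3, at 0.31 ± 0.12 (adjusted p = 0.601), and CD83, at -0.22 ± 0.10 (adjusted p = 0.635). The second CD83 probe did not share this, at 0.01 ± 0.14 (adjusted p = 0.99 by limma).

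How far subunits and targets moved together was described over the 12 arrays, which share groups and chips, on chip-adjusted values and with no test. RELB, NFKBIA, NFKBIE, BIRC3 and CD83, a set named after their values were seen, correlated with one another at r of 0.58 to 0.86 in all 10 pairs, the highest between NFKBIA and BIRC3. RELA ran against these 5 at r of -0.84 to -0.57 and BCL3 at -0.57 to -0.25, while NFKB1 stood at 0.16 to 0.61 and NFKB2 at -0.10 to 0.22. With the group means removed, the 10 pairs spread from -0.50 to 0.61, the highest between NFKBIA and NFKBIE. RELA with the 5 then spread from -0.58 to 0.56, NFKB1 from -0.53 to 0.66, BCL3 from -0.56 to 0.30 and NFKB2 from -0.20 to 0.22. Outside the set, RELA and BCL3 correlated at 0.72, and at 0.78 with the group means removed, then the highest of all member pairs. Within groups, r was thus positive for some pairs and negative for others. With so few arrays per group and no test, these values cannot tell whether any pair moved together within groups.

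Among all other named genes, those most like the members with the largest called changes were taken by Pearson correlation over the 12 arrays. Nearest to NFKBIA were STEAP3 (r = 0.978), DSE (0.973) and SMAD6 (0.972). Nearest to BIRC3 were NLRP8 (0.984), HSD17B7 (0.983) and SLC25A51 (0.983), and nearest to BCL3 were KCNK17 (0.950), KCTD6 (0.942) and SLC1A5 (0.932). Each is the extreme of correlations over all tested named genes and carries no test.

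A list of 97 other genes of the pathway put the members beside their surroundings, and 60 of the 96 on the array were tested. With both ligands 6 rose and 4 fell against untreated cells (16.7% called, where 7.77% of all tested probes were), with Wnt5a 3 rose and 3 fell (10%, against 5.25% of all probes), and with Wnt3a 1 rose and 5 fell (10%, against 1.52%). Between Wnt5a and Wnt3a 4 were higher and 1 lower (8.33%, against 5.9%), between both and Wnt3a 4 were higher and 1 lower (8.33%, against 4.61%), and between both and Wnt5a 0 were called (0%, against 0.121%). The genes that rose with both ligands and with Wnt5a include CCL3 and IRAK2. These were detected on 0 of 3 untreated arrays and were tested only because treated arrays passed. CCL3, detected on 1 of 3 Wnt3a arrays, also counts among the genes higher than with Wnt3a. The shares called therefore add no support. Median changes of the list were 0.03 with both ligands, -0.01 with Wnt5a and -0.02 with Wnt3a, against -0.01, -0.00 and -0.00 over all tested probes.

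The ligand genes of the list that passed were lower. IL1B, which encodes the cytokine interleukin-1 beta, read 7.90, 7.82 and 7.91 with both ligands, 8.22, 8.23 and 8.10 with Wnt5a, 8.39, 8.22 and 8.17 with Wnt3a, and 8.71, 8.67 and 8.53 in untreated cells. All treated arrays lay below all untreated arrays, and the combination lay below either ligand alone. IL1B fell by 0.84 ± 0.08 with both ligands (adjusted p = 8.06e-05), by 0.45 ± 0.07 with Wnt5a (adjusted p = 0.00158) and by 0.37 ± 0.07 with Wnt3a (adjusted p = 0.0137), each against the same untreated arrays. The combination was also lower than Wnt3a, by 0.47 ± 0.08 (adjusted p = 0.00582), while its difference from Wnt5a, -0.39 ± 0.08, did not pass (adjusted p = 0.111). TNF, the founding cytokine of its family, fell by 0.35 ± 0.07 with Wnt3a (adjusted p = 0.0193). In total 2 of 6 tested ligand genes fell with both ligands, 1 with Wnt5a and 2 with Wnt3a, 0 rose, and the rest did not pass. These are 33.3%, 16.7% and 33.3% of the 6 genes, where 7.77%, 5.25% and 1.52% of all tested probes were called.

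Among the other target genes, the monocyte chemokine CCL2 moved in opposite directions with the ligands. It read 11.63, 11.67 and 11.64 with both ligands, 11.79, 11.75 and 11.71 with Wnt5a, 10.93, 10.89 and 10.87 with Wnt3a, and 11.37, 11.24 and 11.26 in untreated cells, with no overlap between any groups. CCL2 rose by 0.46 ± 0.06 with Wnt5a (adjusted p = 0.000532) and fell by 0.39 ± 0.06 with Wnt3a (adjusted p = 0.00406), each against untreated cells. Wnt5a cells had 1.81-fold more CCL2 than Wnt3a cells, a difference of 0.85 ± 0.06 (adjusted p = 4.03e-06), and the combination exceeded Wnt3a by 0.71 ± 0.07 (adjusted p = 0.000151). The chemokine CCL3, which has near-identical copies that the probe may not tell apart, was detected on 3 of 3 combination arrays, 3 of 3 Wnt5a arrays, 1 of 3 Wnt3a arrays and 0 of 3 untreated arrays. Against the lowest detected signal it was at least 1.38-fold higher with both ligands and at least 1.66-fold higher with Wnt5a than in untreated cells. These bounds use group means without chip adjustment and carry no test. The limma tests of the chip-adjusted differences gave adjusted p of 0.00298 and 0.000356. They rest on untreated values below detection, and the probe entered only through ligand-treated arrays, so they add no support to the detection counts.

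TNFAIP8, a TNF-induced inhibitor of apoptosis, ran the other way between the ligands. It read 9.21, 9.32 and 9.21 with both, 8.95, 9.04 and 8.91 with Wnt5a, 9.47, 9.52 and 9.48 with Wnt3a, and 8.89, 8.93 and 8.79 in untreated cells, so the Wnt3a arrays were the highest. TNFAIP8 rose by 0.62 ± 0.07 with Wnt3a against untreated cells (adjusted p = 0.000374) and was lower by 0.52 with Wnt5a than with Wnt3a (log2 difference -0.52 ± 0.07; adjusted p = 0.000459). BCL2L1, which encodes the survival protein BCL-xL, fell by 0.48 ± 0.08 with both ligands (adjusted p = 0.00418), by 0.39 ± 0.07 with Wnt5a (adjusted p = 0.00637) and by 0.32 ± 0.07 with Wnt3a (adjusted p = 0.0447). A second BCL2L1 probe passed with both ligands and with Wnt5a and not with Wnt3a (-0.28, adjusted p = 0.147).

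Upstream of the inhibitors, IRAK2, a kinase of the interleukin-1 and Toll-like receptor route, was detected on 3 of 3 arrays of every treated group and on 0 of 3 untreated arrays. It was higher than in untreated cells with both ligands (adjusted p = 0.00134), with no lower bound given because the bound on means without chip adjustment exceeded the chip-adjusted value. With Wnt5a it was at least 1.61-fold higher, a bound on means without chip adjustment. The limma test of the chip-adjusted difference gave an adjusted p of 0.000356 with Wnt5a and 0.132 with Wnt3a, which did not pass. The tests against untreated cells rest on untreated values below detection. The probe entered only through the treated groups, so these p-values add no support to the detection counts. Wnt5a cells had 0.49 ± 0.10 more IRAK2 than Wnt3a cells on the log2 scale (adjusted p = 0.00931). Against untreated cells IRAK2 was the 1 gene called among 15 tested kinases with both ligands and likewise with Wnt5a. That is 6.67% of the kinases, near the 7.77% and 5.25% of all tested probes called in these comparisons. BIRC2, the close relative of BIRC3 and a ubiquitin ligase of the same complexes, rose by 0.51 ± 0.13 with both ligands (adjusted p = 0.0324), but its second probe did not pass (0.08, adjusted p = 0.693). CYLD, a deubiquitinase that restrains the pathway, was higher with Wnt5a than with Wnt3a by 0.41 ± 0.08 (adjusted p = 0.00897) and higher with both than with Wnt3a by 0.39 ± 0.09 (adjusted p = 0.0328).

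**Figure D4:**
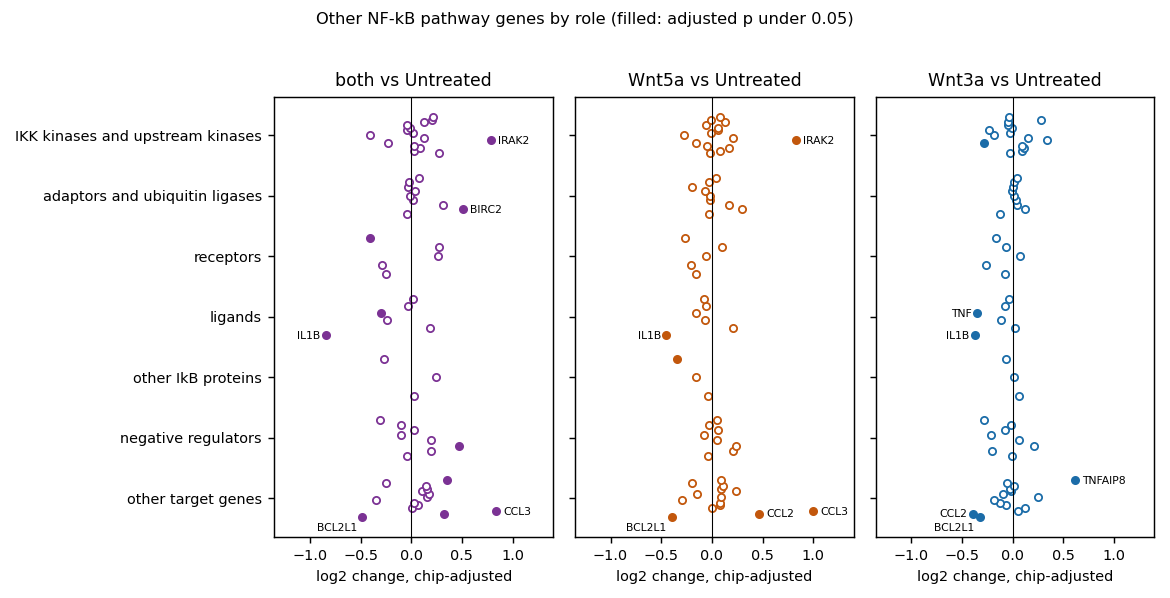
Chip-adjusted log2 change of 60 other pathway genes (1 probe per gene) by role, for both ligands, Wnt5a and Wnt3a against untreated cells, filled where the adjusted p was under 0.05 and with up to 5 named genes per panel. IRAK2 and CCL3 lie far right with both ligands and with Wnt5a, where their untreated arrays were below detection so that the plotted size is no bound; IL1B lies left in every panel, and CCL2 is right of 0 with Wnt5a and left of 0 with Wnt3a.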

How the data were processed

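Total RNA of 12 cultures was hybridized to Illumina human BeadChips. The authors deposited a probe intensity per array, not normalized per the file headers, and a detection value, a fraction from 0 to 1 that is highest for bright probes, used here as the detection score. The deposited value table in log2 units, with centring and exact steps not given in the sources used here, served as an alternative; lumi is named in the submitters' processing notes without a version. The detection value rose with the signal on every array (Spearman correlation of at least 0.995 after rounding).

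Signals were background-corrected by normexp, with negative controls inferred from the detection values (detection p taken as 1 minus the score) and an offset of 16, quantile normalized and log2-transformed (limma 3.58.1, R 4.3.3). Probes above 0.99 on at least 3 of 12 arrays were tested. One linear model (4 group means plus a term for the chip) was run with lmFit and eBayes (7 residual and 5.04 prior degrees of freedom), for 7 comparisons, two-sided, with Benjamini-Hochberg adjustment over 14051 probes. A gene was counted by its brightest tested probe. Symbols came from the platform annotation or, failing that, from the deposited file (2274 tested probes). Members, pathway list, markers and naming rule were chosen with earlier results of these data known; some markers are not reported here and were left out of the marker counts and sums. Named pathway genes were the 5 largest called changes per comparison, and likeness took the 3 nearest genes of 3 members. Tested on simulated data for Wnt5a against untreated cells (14051 probes), the fit recovered 12% of probes changed by 0.25, 64% at 0.4, 82% at 0.5 and 98% at 1 (log2). The simulation used independent normal noise and changed 50 probes at each size. Recovery after adjustment depends on how many probes change, so these rates need not hold for the data, where 737 probes were called. The number of arrays limits the precision. The main model did not pair arrays by replicate number. Correlations of deviations exceeded 0.1 in 9 of 18 same-number pairs (median 0.12) and in 9 of 36 other pairs (median -0.04). Partial pairing is therefore possible, and replicate number was used as a block in an alternative setting.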

Additional observations from a re-analysis of the deposited data

How the results depend on the processing

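Of 15 member calls, 4 held under all 22 alternative settings (BIRC3 and CD83 with Wnt5a against untreated cells, and NFKBIA and BIRC3 with Wnt5a against Wnt3a), and 0 calls reversed. All 25 within-chip values of called members had the sign of the full fit. Without the detection filter, where more probes are tested, 3 members were called with Wnt5a, 0 with Wnt3a and 2 between Wnt5a and Wnt3a. Over all 48803 probes 456, 119 and 515 were called in these comparisons. Without the chip term 2 members were called between Wnt5a and Wnt3a, where 355 of all 14051 probes were called higher and 278 lower. RELB and CD83 kept their log2 changes of 0.28 and 0.29 there, and their adjusted p by limma became 0.0556 and 0.0501. Their calls thus ended with no change in size. Leaving out 1 array gave 0 to 3 members with both ligands, 2 to 5 with Wnt5a and 0 to 1 with Wnt3a against untreated cells, 0 to 2 for both against Wnt3a, 0 to 0 for both against Wnt5a, 2 to 5 for Wnt5a against Wnt3a and 0 to 0 for the interaction. With replicate number as a block beside the chip term, 2, 5, 1, 2, 0, 4 and 0 members were called in both, Wnt5a and Wnt3a against untreated cells, both against Wnt3a, both against Wnt5a, Wnt5a against Wnt3a and the interaction. In that order, calls over all 14051 probes were 528 higher and 390 lower, 495 and 391, 134 and 84, 348 and 207, 17 and 1, 580 and 431, and 0 and 0. The CD83 call with both ligands ended (adjusted p = 0.0584), and 6 of 12 arrays were nearest to their own number.

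Counts over all probes moved by more than 1.5 times in these cases. With both ligands against untreated cells 1092 became 520 without the detection filter. With Wnt5a 737 became 456, and with Wnt3a 213 became 119 without the filter, 341 without background correction and 346 in the authors' table. For both against Wnt3a 648 became 397 without the chip term, 413 with chip as a random block, 991 in the authors' table, 1060 without background correction and 269 without the filter. For both against Wnt5a 17 became 28 without background correction, for Wnt5a against Wnt3a 829 became 515 without the filter, and the interaction, which had 0 calls, had 1 with raw signals in place of corrected ones and 1 on the authors' values. Leaving out 1 array gave lowest counts of 238, 368, 76, 86, 11, 422 and 0 in that order of comparisons. The authors' table gave log2 sizes over 1.5 times smaller for 9 of the 15 member calls.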
